A study of Homo sapiens with 6 samples.

Results

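The 7 genes of the insulin-like growth factor (IGF) binding protein family, IGFBP1 to IGFBP7, were followed through RNA sequencing of A549 cells, a human line derived from a lung adenocarcinoma. The members were the rows of the deposited tables that carry these gene names, 7 of 58735 genes, and all 7 passed the filter on low counts that left 16340 genes to test. Cells of the WT group were stably infected with a PLVX lentivirus for HOXB9, a homeobox transcription factor. Cells of the T133A group received the same kind of vector for HOXB9 T133A, in which a threonine is replaced by alanine. Cells of the KO group were labelled as infected with lentivirus for a HOXB9 knockout. All 3 groups were therefore infected cells in RPMI 1640 with 10% FBS, each with 2 libraries, and no group had an empty vector or uninfected cells. The labels do not say whether a line was a clone or a pool, or whether WT and T133A cells kept an intact HOXB9 gene of their own. They name no separate cultures behind the paired libraries either, and the p-values below may rest on technical spread alone.

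IGF binding proteins are secreted proteins that hold IGF1 and IGF2 in the extracellular space. They carry the hormones, keep them from the IGF1 receptor, and release them when proteases cut the binding protein. IGFBP1 to IGFBP6 bind IGFs with high affinity, whereas IGFBP7, also called IGFBP-rP1 or mac25, binds them weakly. In epithelial cells several members also act without IGF, through integrins and other surface partners.

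The libraries held 16299059 to 18745432 counts. HOXB9 was counted 3807 and 3889 times in the libraries of WT, 4777 and 3577 in those of T133A and 239 and 286 in those of KO, so its transcript was low where the labels say KO, and the counts do not separate the construct from the cells' own gene. All 11 epithelial and A549 markers were detected in every group, with a summed level of 26720 to 27870 CPM (a gene's counts scaled to the library's size after TMM normalisation) in WT, 22140 to 24260 in T133A and 17030 to 18880 in KO. Of the 11, 0 were called higher and 7 lower in KO than in WT (63.6%, beside 46.6% of all genes). Among the lower were EPCAM (log2 fold change -3.10) and GPX2 (-2.59). In T133A 0 were higher and 2 lower than in WT (18.2%, beside 9.55% of all genes). Markers of cell types known to make IGF binding proteins were scarce. The 8 endothelial markers summed to at most 2.53 CPM and the 8 haematopoietic markers to at most 17.59 CPM, and the endothelial marker ERG had no count in any library. The 10 fibroblast markers summed to 42.9 to 43.11 CPM in WT, 43.27 to 43.29 in T133A and 14.26 to 14.45 in KO, with COL1A2, PDGFRA, FAP and POSTN each at most 0.335 CPM, while LUM ranged from 0.215 to 25.46 CPM and COL3A1 from 0.0538 to 13.44 CPM. Of the 5 fibroblast markers tested, LUM, COL3A1 and DCN were lower in KO than in WT, and THY1 (log2 fold change 2.58) and COL1A1 (0.57) were higher. Mitochondrial transcripts took 7.84% to 8.91% of counts in WT and T133A and 4.45% to 5.60% in KO. These markers moved with the KO group beside the results below, and their part in those results was not tested. In bulk RNA, fewer cells that express a gene and less RNA per cell cannot be told apart.

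Of the 7 genes, 4 lie in 2 neighbouring pairs on GRCh38. IGFBP1 (ENSG00000146678, chromosome 7, 45888357 to 45893668, forward strand) and IGFBP3 (ENSG00000146674, chromosome 7, 45912245 to 45921874, reverse strand) face each other across 18.58 kb. IGFBP2 (ENSG00000115457, chromosome 2, 216632828 to 216664436, forward strand) and IGFBP5 (ENSG00000115461, chromosome 2, 216672105 to 216695525, reverse strand) face each other across 7.67 kb. IGFBP4 (ENSG00000141753) occupies 40443461 to 40457731 on the forward strand of chromosome 17. IGFBP6 (ENSG00000167779) occupies 53097436 to 53102345 on the forward strand of chromosome 12, and IGFBP7 (ENSG00000163453) 57030773 to 57110385 on the reverse strand of chromosome 4. Of the 7 genes, 6 share a chromosome with a HOX cluster. IGFBP6 was nearest to one, 0.836 Mb from HOXC13, and IGFBP4 was 8.07 Mb from HOXB1, on the chromosome that also holds HOXB9. IGFBP7 overlaps POLR2B by 396 bases on the opposite strand. The strand setting of the counting is not given in the sources used here, and POLR2B had 2200 to 2484 counts in the 6 libraries. Its part in the IGFBP7 counts was not tested. The antisense genes that overlap IGFBP5 and IGFBP7 had 0 counts in all libraries.

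**Figure D1:**
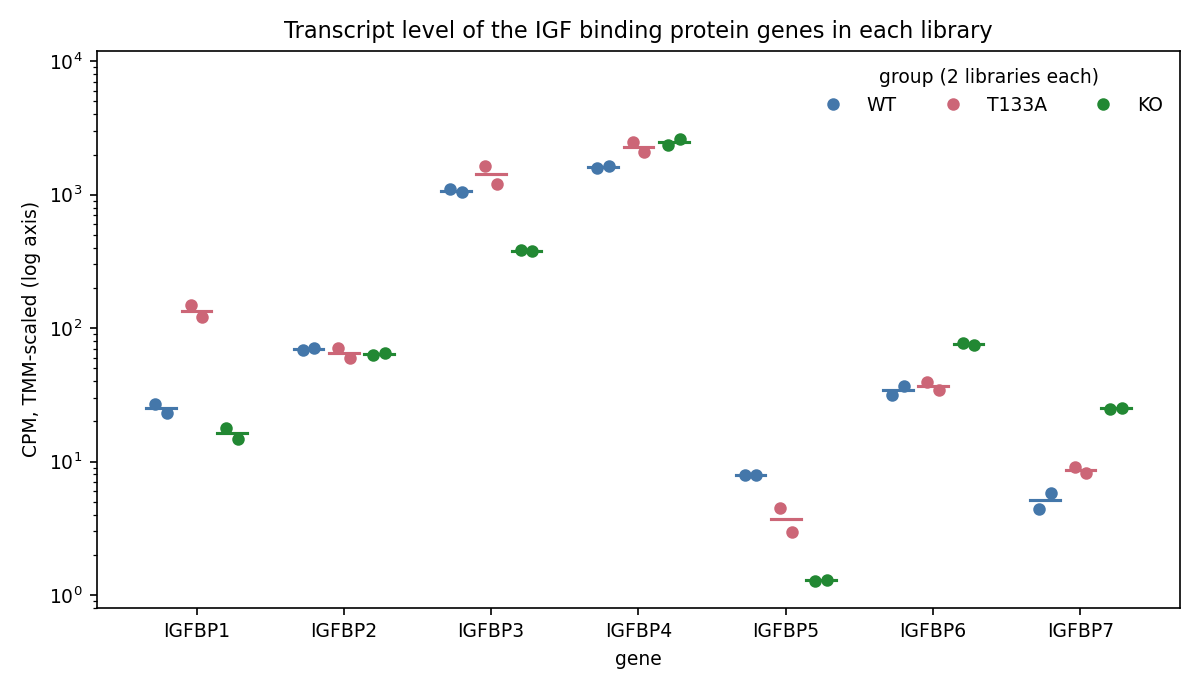
Transcript level of each IGF binding protein gene in CPM on a log axis; each dot is a library, each short line the mean of the 2 libraries of a group. IGFBP3 and IGFBP4 lie above all other members in each group, IGFBP1 stands out in T133A, and IGFBP5 and IGFBP7 run in opposite directions from WT to KO.

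Levels of different genes were compared per kilobase of gene length (CPM per kilobase). IGFBP4 was the most abundant member in every library and IGFBP3 the second. In WT their means were 733.6 ± 16.45 and 234.5 ± 9.13 CPM per kilobase (mean ± SD, n = 2). IGFBP6 followed with 25.34 ± 2.67, then IGFBP1 with 15.15 ± 1.63 and IGFBP2 with 14.68 ± 0.418, whose libraries overlapped. IGFBP7 (2.65 ± 0.539) and IGFBP5 (1.23 ± 0.00951) were the least abundant. In T133A the order changed in 1 place, with IGFBP1 next in rank after IGFBP3 at 81.4 ± 11.34 CPM per kilobase, above IGFBP6. In KO IGFBP6 came after IGFBP3 at 56.73 ± 1.35, and IGFBP2 (13.49 ± 0.360), IGFBP7 (13.0 ± 0.233) and IGFBP1 (9.91 ± 1.36) followed closely on each other, although their libraries did not overlap.

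The family as a whole took 0.290% and 0.288% of the counts of the WT libraries, 0.416% and 0.352% of those of T133A and 0.295% and 0.315% of those of KO. Its summed level was 1021 and 1034 CPM per kilobase for WT, 1625 and 1328 for T133A, and 1248 and 1363 for KO. Of that sum IGFBP4 held 70.74% and 72.09% in the WT libraries, 69.46% and 71.34% in those of T133A and 85.68% and 87.23% in those of KO. The share of IGFBP3 was 23.61% and 22.06% in the WT libraries, 21.98% and 19.92% in those of T133A and 6.73% and 6.03% in those of KO. IGFBP4 transcripts were thus 2.996 and 3.27 times as abundant as IGFBP3 transcripts in the WT libraries and 12.74 and 14.46 times as abundant in KO. The share of IGFBP1 was 5.50% and 5.53% in T133A against 1.60% and 1.35% in WT.

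**Figure D2:**
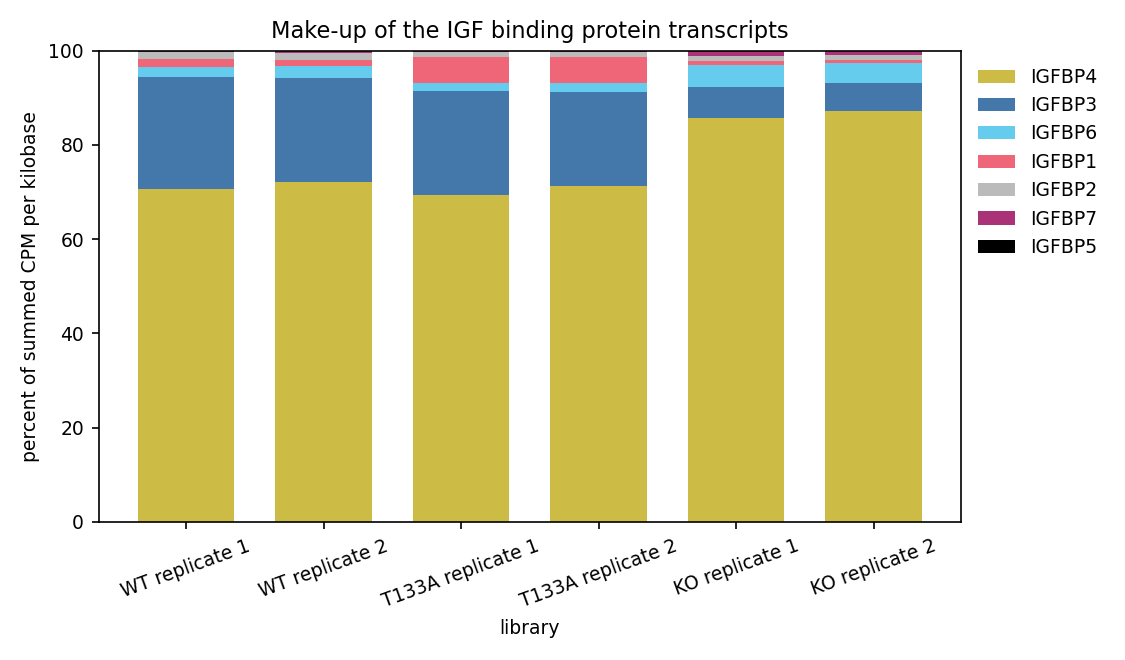
Make-up of the summed IGF binding protein level (CPM per kilobase) in each library, as percent of the sum on an axis from 0 to 100. IGFBP4 fills 69.46% to 72.09% of the bar in WT and T133A and 85.68% to 87.23% in KO, where the IGFBP3 segment shrinks to 6.73% and 6.03%.

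Setting T133A against WT addresses what differs when the introduced HOXB9 carries the substitution. In T133A, 4 of the 7 members were higher (IGFBP1, IGFBP3, IGFBP4 and IGFBP7) and 1, IGFBP5, was lower, at an adjusted p under 0.05 in edgeR's quasi-likelihood test. Over all 16340 genes tested, 5.58% were called higher and 3.97% lower, 9.55% in all. With scaling by library size alone, the share of higher genes among all calls was 45.0% in place of 58.5%. The median log2 fold change of the 7 members was 0.41, beside 0.00352 over all genes tested. The median absolute value was 0.501, beside 0.204. The number of members called higher was 1 without WT replicate 1, 2 without WT replicate 2, 3 without T133A replicate 1 and 4 without T133A replicate 2. Calls over all genes also fell without either WT library or T133A replicate 1, and rose without T133A replicate 2. The changes in the member counts are therefore not particular to the family. A group left with a single library was assumed to vary like the others. IGFBP5 was called lower in every alternative that tested it.

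Setting KO against WT addresses what differs between cells labelled as HOXB9 knockout and cells infected with a lentivirus for HOXB9. Without an empty vector group, loss and introduction of HOXB9 cannot be told apart here. In KO, 3 members were higher (IGFBP4, IGFBP6 and IGFBP7) and 3 were lower (IGFBP1, IGFBP3 and IGFBP5). Over all genes tested 23.6% were called higher and 23.0% lower, 46.6% in all, so calls were common in this comparison. With the least-squares GC and length correction described below, 64.4% of all calls were higher, in place of 50.7%. With the robust form of that correction, added later, the share was 52.3%. The median log2 fold change was -0.12 over the members and 0.00102 over all genes tested. The median absolute value was 1.16 over the members and 0.427 over all genes. These 3 and 3 calls held without any 1 library. This comparison uses the same WT libraries as the one before.

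T133A was also set directly against KO. Here 3 members were higher in T133A (IGFBP1, IGFBP3 and IGFBP5) and 2 were lower (IGFBP6 and IGFBP7), and IGFBP2 and IGFBP4 missed the threshold. Over all genes 20.3% were called higher and 19.6% lower, 39.9% in all. The least-squares correction for GC and length moved the higher share of these calls from 50.9% to 34.6%. With the robust form the share was 49.1%. The median log2 fold change was 0.014 over the members and -0.0097 over all genes, and the median absolute value 1.53 and 0.371. The same counts of 3 and 2 were found without any 1 library.

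**Figure D3:**
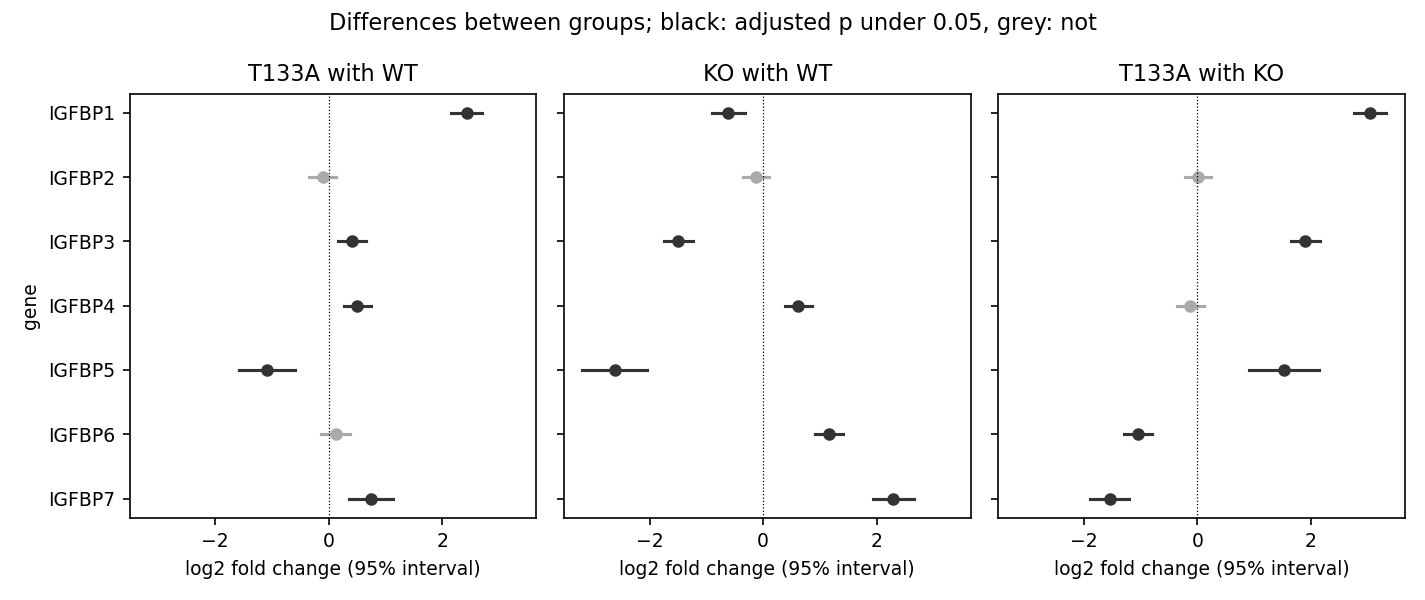
Log2 fold change of each member in the 3 comparisons, with its 95% interval from edgeR; black marks an adjusted p under 0.05 and grey a larger one. IGFBP1 has the largest difference in T133A with WT (2.43) and in T133A with KO (3.04), IGFBP5 and IGFBP7 the largest in KO with WT (-2.62 and 2.29), and IGFBP2 lies near 0 in all 3.

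IGFBP1 encodes a short-lived binding protein best known from liver and decidua, where insulin lowers its transcript and starvation, hypoxia and FOXO factors raise it. It was counted 461 and 415 times in the libraries of WT, 2571 and 2063 in those of T133A and 296 and 275 in those of KO. In CPM these were 26.95 and 23.14, 147.8 and 121.3, and 17.97 and 14.8. Both T133A libraries lay far above all others, and both KO libraries lay below both WT libraries. IGFBP1 was 5.37-fold higher in T133A than in WT (95% interval 4.44 to 6.51; log2 fold change 2.43, SE 0.133, edgeR adjusted p = 8.15e-12). Only 0.61% of the genes tested differed as much or more in this comparison. It was 1.53-fold lower in KO than in WT (log2 fold change -0.61, SE 0.141, edgeR adjusted p = 0.00112), a size that 34.63% of genes reached there. T133A and KO differed 8.23-fold (95% interval 6.74 to 10.04; log2 fold change 3.04, edgeR adjusted p = 3.77e-14).

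Among 10788 protein-coding genes with a mean of at least 5 CPM, the genes whose pattern over the 6 libraries was most like that of IGFBP1 were XDH (root mean square difference of centred log2 levels 0.12), ZC3H12A (0.155) and ITIH5 (0.175). XDH, the gene of xanthine dehydrogenase, stood at 9.35 and 9.87 CPM in the WT libraries, 52.14 and 46.86 in those of T133A and 5.89 and 5.27 in those of KO. The nearest tested coding gene on the other side of IGFBP1, ADCY1, ranged from 24.84 to 30.35 CPM and was called in none of the 3 comparisons.

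IGFBP3 encodes the main carrier of IGFs in blood, where it forms a complex with the acid-labile subunit. Its transcript was counted 18842 and 18692 times in the libraries of WT, 28397 and 20559 in those of T133A and 6319 and 6979 in those of KO. The levels were 1101 and 1042 CPM in the WT libraries, 1633 and 1209 in those of T133A and 383.6 and 375.6 in those of KO. The groups did not overlap, but the T133A libraries stood much further from each other than those of WT or KO. IGFBP3 fell 2.82-fold in KO (log2 fold change -1.498, SE 0.123, 95% interval -1.75 to -1.24, edgeR adjusted p = 1.18e-09) and in T133A was 3.74 times its KO level (log2 fold change 1.90, SE 0.125, edgeR adjusted p = 2.4e-11).

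Against WT, IGFBP3 was 1.33-fold higher in T133A (log2 fold change 0.41, SE 0.12, edgeR adjusted p = 0.0327), a call that turned on single libraries. It was lost without T133A replicate 1 (log2 fold change 0.19, adjusted p = 0.356), without WT replicate 1 (0.44, adjusted p = 0.128), without WT replicate 2 (0.35, adjusted p = 0.28) and with scaling by library size alone (0.33, adjusted p = 0.0692). Without T133A replicate 2 the value was 0.61 (adjusted p = 5.06e-06). Of all genes tested, 24.61% differed by as much in this comparison. The pattern most like that of IGFBP3 was that of RAP1GAP2 (root mean square difference 0.0602), which read 43.43 and 41.16 CPM in the WT libraries, 59.39 and 43.45 in those of T133A and 15.24 and 14.53 in those of KO. The basement membrane gene NID1 (0.0864) and the class I gene HLA-C (0.0901) came next, the last of them uncertain because HLA genes are alike in sequence.

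IGFBP4 encodes a binding protein that keeps IGF from its receptor until it is cut by pappalysin-1. It was the most abundant member, with 27171 and 29398 counts in the WT libraries, 43201 and 35446 in those of T133A and 38745 and 48587 in those of KO. The levels were 1588 and 1639 CPM in the WT libraries, 2484 and 2084 in those of T133A and 2352 and 2615 in those of KO. Both other groups lay above WT and overlapped each other. IGFBP4 was 1.42-fold higher in T133A than in WT (log2 fold change 0.50, SE 0.114, edgeR adjusted p = 0.00519), a call lost without WT replicate 1 (0.47, adjusted p = 0.106) or WT replicate 2 (0.51, adjusted p = 0.0598). It was 1.54-fold higher in KO than in WT (log2 fold change 0.62, SE 0.114, edgeR adjusted p = 0.000114). T133A and KO differed by -0.12 (95% interval -0.36 to 0.11, edgeR adjusted p = 0.426). The patterns most like it were those of APBA3 (root mean square difference 0.0405), the growth factor gene HDGF (0.0455) and the histone demethylase gene KDM4B (0.0488).

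IGFBP5 encodes a matrix-binding form that is prominent in bone, muscle and mammary gland. It was rare in these cells, with 136 and 141 counts in the WT libraries, 78 and 50 in those of T133A and 21 and 24 in those of KO. The levels were 7.95 and 7.86 CPM in the WT libraries, 4.48 and 2.94 in those of T133A and 1.28 and 1.29 in those of KO. The libraries fell into 3 separate steps, WT above T133A above KO. IGFBP5 was 6.13-fold lower in KO than in WT (95% interval of the log2 fold change -3.18 to -2.05; log2 fold change -2.62, SE 0.273, edgeR adjusted p = 5.95e-08). It was 2.13-fold lower in T133A than in WT (log2 fold change -1.09, SE 0.235, edgeR adjusted p = 0.00352) and stood 2.89-fold above KO in T133A (log2 fold change 1.53, SE 0.294, edgeR adjusted p = 0.00024). It did not reach a mean of 5 CPM, so a filter at that level left it untested. The scavenger receptor gene SCARA5 (root mean square difference 0.122), the tetraspanin gene TSPAN1 (0.124) and ANG, which encodes angiogenin (0.203), had the patterns most like it. SCARA5 read 10.35 and 8.98 CPM in the WT libraries, 5.52 and 3.65 in those of T133A and 1.33 and 1.35 in those of KO.

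IGFBP2, the neighbour of IGFBP5, encodes a member that is high in fetal tissues and many carcinomas and carries an integrin-binding RGD sequence. It was counted 1173 and 1280 times in the libraries of WT, 1225 and 1011 in those of T133A and 1039 and 1217 in those of KO. Its levels were 68.57 and 71.38 CPM, 70.43 and 59.44 CPM, and 63.07 and 65.5 CPM in that order. T133A overlapped both other groups, and the KO libraries lay just below those of WT. No difference passed the threshold in edgeR's test. The log2 fold change was -0.11 for T133A with WT (95% interval -0.34 to 0.13, adjusted p = 0.623), -0.12 for KO with WT (-0.36 to 0.11, adjusted p = 0.392) and 0.014 for T133A with KO (-0.22 to 0.25, adjusted p = 0.932). The intervals allow T133A levels from 0.790 to 1.09 times those of WT and KO levels from 0.782 to 1.08 times. With the correction for GC and length IGFBP2 was called lower in KO than in WT (-0.23, adjusted p = 0.0161). The patterns most like it were those of GTF2IRD1 (root mean square difference 0.0238), the cargo receptor gene LMAN2 (0.0269) and PUDP (0.0288).

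IGFBP6 encodes a form that prefers IGF2 over IGF1. It was counted 540 and 657 times in the libraries of WT, 692 and 584 in those of T133A and 1279 and 1395 in those of KO. The levels were 31.56 and 36.64 CPM in the WT libraries, 39.78 and 34.34 in those of T133A and 77.64 and 75.08 in those of KO. Both KO libraries lay well above the 4 others, while WT and T133A overlapped. IGFBP6 was 2.24-fold higher in KO than in WT (95% interval 1.88 to 2.67; log2 fold change 1.16, SE 0.122, edgeR adjusted p = 5.95e-08) and 2.06-fold lower in T133A than it was in KO (log2 fold change -1.04, SE 0.121, edgeR adjusted p = 3.58e-07). T133A and WT differed by 0.12 on the log2 scale (95% interval -0.14 to 0.38, edgeR adjusted p = 0.618). The patterns most like it were those of BAX, a pore-forming gene of apoptosis (root mean square difference 0.0317), the 14-3-3 sigma gene SFN (0.0463) and TOMM40 of the mitochondrial import channel (0.0516). BAX stood at 77.98 and 89.0 CPM in the WT libraries, 100.8 and 88.96 in those of T133A and 194.6 and 192.6 in those of KO.

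IGFBP7 encodes the low-affinity relative that is deposited in basement membranes of vessels and is often silenced in carcinomas. It was counted 75 and 105 times in the libraries of WT, 157 and 139 in those of T133A and 408 and 472 in those of KO. The levels were 4.38 and 5.86 CPM, 9.03 and 8.17 CPM, and 24.77 and 25.4 CPM. The libraries formed 3 separate steps in the order opposite to IGFBP5. IGFBP7 was 4.89-fold higher in KO than in WT (95% interval 3.80 to 6.28; log2 fold change 2.29, SE 0.174, edgeR adjusted p = 3.29e-10), a size that 4.48% of genes reached. It was 2.92-fold lower in T133A than it was in KO (log2 fold change -1.54, SE 0.164, edgeR adjusted p = 9.34e-08). Against WT it was 1.68-fold higher in T133A (log2 fold change 0.75, SE 0.186, edgeR adjusted p = 0.0112), a call lost without WT replicate 1 (0.55, adjusted p = 0.283). The collagen VI gene COL6A2 had the pattern most like it (root mean square difference 0.163), at 10.58 and 12.27 CPM in the WT libraries, 26.79 and 19.05 in those of T133A and 64.47 and 56.51 in those of KO. ZNF772 (0.183) and EFHD2 (0.192) followed.

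The spread within T133A had 1 direction for the family. All 7 members had a higher CPM in T133A replicate 1 than in replicate 2, against 3 of 7 in WT and 3 of 7 in KO. Over all genes tested, 55.76% were higher in replicate 1 of T133A, 48.2% in that of WT and 50.52% in that of KO. The longest transcripts of the members had a GC content of 49.46% (IGFBP3) to 64.15% (IGFBP6), against a median of 48.4% over the genes tested. Among tested genes with a GC content of at least 49.46%, 78.3% were higher in replicate 1 of T133A, 39.11% in that of WT and 37.28% in that of KO. Across genes, the difference between the T133A replicates rose with GC content (Spearman's rho 0.5 over the genes tested, which share these libraries), while rho was -0.18 for WT and -0.286 for KO.

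A correction of each library for GC content and transcript length, by loess with least squares, was among the alternatives. The differences of T133A from WT then were 2.38 for IGFBP1, 0.34 for IGFBP3, 0.48 for IGFBP4, -1.16 for IGFBP5 and 0.68 for IGFBP7, each with an edgeR adjusted p of at most 0.0167. In KO with WT this correction moved the median of all genes to 0.147 and in T133A with KO to -0.148, so its values there are read relative to those shifts. IGFBP4 in KO with WT was 0.50, or 0.36 above the median of all genes, IGFBP2 was -0.23, or -0.37 relative to it, and IGFBP4 in T133A with KO was -0.026, or 0.12 relative to it. Once the shift had been seen, a robust loess, which left medians of 0.0205 and -0.0108, was added. It gave 0.35 (adjusted p = 0.000318) for IGFBP4 and -0.32 (adjusted p = 0.00114) for IGFBP2 in KO with WT, and 0.12 (adjusted p = 0.196) for IGFBP4 in T133A with KO, a change of sign. Under both corrections IGFBP1, IGFBP3 and IGFBP5 to IGFBP7 kept the KO calls given above.

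**Figure D4:**
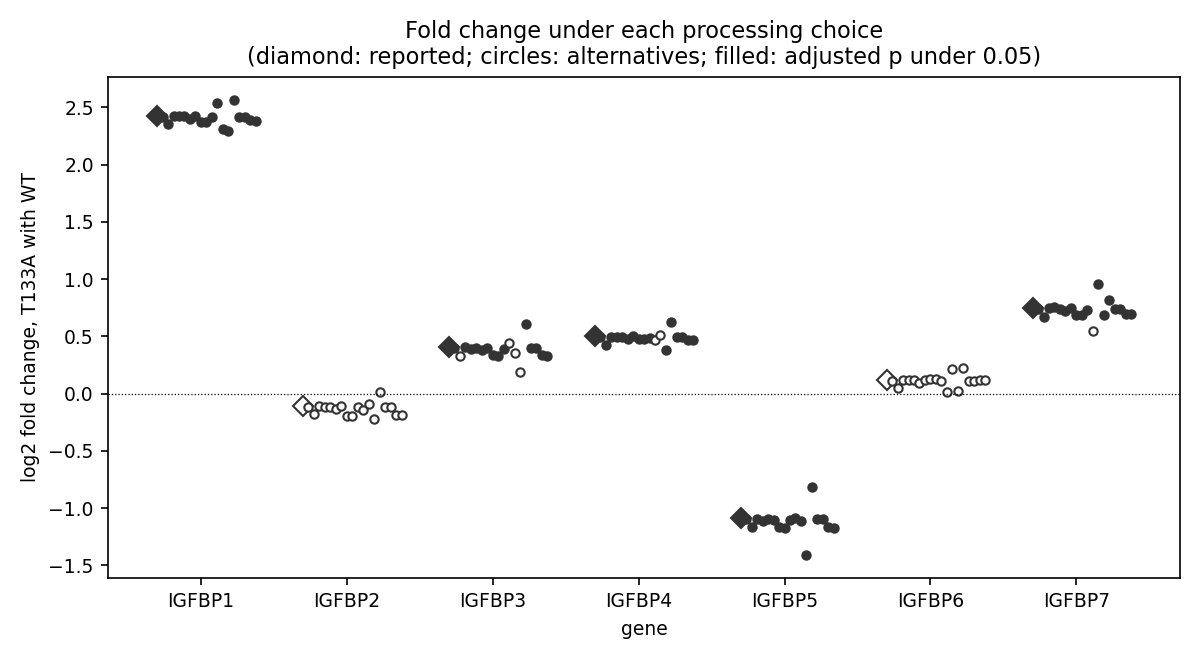
Log2 fold change of each member in T133A with WT as reported (diamond) and under each processing choice, those added later included (circles); filled marks have an adjusted p under 0.05. IGFBP1 (2.29 to 2.57) and IGFBP5 (-1.41 to -0.81) stay filled throughout, while IGFBP3, IGFBP4 and IGFBP7 each have open circles.

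HOX proteins bind short AT-rich cores, so the reference promoters of the members were examined. RefSeq promoter sequences on GRCh38.p14 were matched for 5 of the 7 members, IGFBP2 to IGFBP6. The window ran from 250 to 6 bases before the annotated start. The motifs searched on both strands were TAAT, a core of many homeodomains, TTTAT, preferred by posterior HOX proteins, TATAAA, a core form of the TATA box, and GGGCGG, the GC box. Only exact matches were counted, and other forms of the TATA box were not searched. TATAAA holds TTTAT on its other strand. Of 35116 promoters of this length, 47.18% held TAAT, 32.5% TTTAT, 10.64% TATAAA and 42.09% GGGCGG. The windows of IGFBP3, IGFBP4 and IGFBP5 are shown because these members differed between WT and KO and GENCODE 29 places no exon in them. Members, motifs and windows to show were chosen with the values known. The IGFBP3 window lies in an intron of a longer annotated IGFBP3 transcript, and the IGFBP5 window in an intron of an antisense gene. Capitals mark matches to any of the 4 motifs, on either strand.
IGFBP3 (chr7:45921278-45921522, reverse strand): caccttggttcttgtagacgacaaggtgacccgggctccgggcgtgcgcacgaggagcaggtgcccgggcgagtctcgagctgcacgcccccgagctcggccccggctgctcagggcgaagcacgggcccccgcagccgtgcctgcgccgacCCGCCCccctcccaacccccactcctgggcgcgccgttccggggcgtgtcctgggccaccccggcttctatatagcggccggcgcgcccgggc
IGFBP4 (chr17:40443200-40443444, forward strand): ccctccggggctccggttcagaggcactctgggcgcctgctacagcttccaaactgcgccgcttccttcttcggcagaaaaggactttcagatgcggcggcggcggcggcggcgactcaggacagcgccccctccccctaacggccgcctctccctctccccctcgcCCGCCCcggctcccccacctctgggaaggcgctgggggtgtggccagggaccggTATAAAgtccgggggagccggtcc
IGFBP5 (chr2:216695555-216695799, reverse strand): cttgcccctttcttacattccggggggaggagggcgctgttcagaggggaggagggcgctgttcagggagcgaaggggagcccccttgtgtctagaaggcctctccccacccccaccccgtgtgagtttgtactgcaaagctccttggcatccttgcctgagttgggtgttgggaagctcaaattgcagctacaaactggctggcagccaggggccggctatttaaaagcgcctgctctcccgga
The windows of IGFBP3, IGFBP5 and IGFBP6 held neither TAAT nor TTTAT, and the single TTTAT of IGFBP4 lies within its TATAAA. Of the 3 annotated IGFBP2 windows, 2 held TAAT and 1 of these also TTTAT. IGFBP5 held none of the 4 motifs, and the GC content was 75.51% for IGFBP3, 71.02% for IGFBP4 and 60.41% for IGFBP5.

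The ligands that IGF binding proteins hold had few counts in these libraries. IGF1, IGF2, INS and IGF1R are given for their role, outside the rule that named the other genes and with their values known. IGF1 was counted at most 8 times in a library. Both rows named IGF2 and the insulin gene INS were listed at 0, but these genes overlap each other and a readthrough gene, so reads from them may not have been assigned. INSL4 was the only gene with a clear level in the wider list of IGF and insulin ligands. It encodes an insulin-like peptide of the placenta and is not counted here among the ligands that the binding proteins hold. It fell from 66.76 ± 0.486 CPM in WT to 29.11 ± 1.33 in T133A and 4.99 ± 1.39 in KO (log2 fold change -1.20 and -3.73, edgeR adjusted p = 1.39e-06 and 1.75e-14). Its order of groups was that of IGFBP5.

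IGF1R, the receptor that IGF binding proteins shield, was present at 183.7 to 216.1 CPM in all 6 libraries and did not pass in any comparison. Of 3 receptor genes tested, none was called in T133A with WT and 1 was lower in KO (33.3% of the list, beside 46.6% of all genes), the insulin receptor gene INSR (log2 fold change -0.90, SE 0.159, edgeR adjusted p = 7.71e-05). Of 7 surface partners of the binding proteins tested, 2 were higher in T133A than in WT (28.6%, beside 9.55% of all genes called), and 2 were higher and 2 lower in KO (57.1%, beside 46.6% of all genes). ITGA5, which encodes a chain of the fibronectin receptor to which IGFBP1 binds, was higher in both, by 1.12 (SE 0.125) and 1.33 (SE 0.125). CAV1, the caveolin gene, rose in KO by 1.65 (SE 0.117). ITGB1, the other chain of that receptor, and the TGF-beta receptor gene TGFBR2 were lower in KO, with log2 fold changes of -0.43 and -0.80. TGFBR1 was the other gene higher in T133A, by 0.44.

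Of 9 genes tested for proteases that cut IGF binding proteins and for their inhibitors, 4 were higher and 0 lower in T133A than in WT, beside 5.58% and 3.97% of all genes. The 4 higher in T133A were the protease genes PAPPA, MMP7 and PLAT and the inhibitor gene STC2. In KO 3 were higher and 5 lower, beside 23.6% and 23.0% of all genes. MMP7 stood at 168.7 ± 4.19 CPM in WT, 480.7 ± 1.87 in T133A and 51.57 ± 4.17 in KO (log2 fold change 1.51 and -1.71). PLAT was higher in T133A by 1.66 and in KO by 0.85. PAPPA, whose product cleaves IGFBP4, stood at 180.0 ± 6.27 CPM in WT, 251.6 ± 11.76 in T133A and 95.95 ± 6.49 in KO (log2 fold change 0.48 and -0.91, edgeR adjusted p = 0.00255 and 2e-07). The stanniocalcin genes STC1 and STC2, whose products inhibit pappalysin-1, moved apart in KO. STC1 was at 76.59 ± 2.95 CPM in WT and 14.82 ± 0.435 in KO (log2 fold change -2.37, SE 0.12) and STC2 rose from 7.27 ± 0.283 to 101.2 ± 0.979 CPM (log2 fold change 3.80, SE 0.135). In T133A STC1 was at 78.91 ± 1.83 CPM, and STC2 was higher than in WT at 18.34 ± 0.408 CPM (log2 fold change 1.33).

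**Figure D5:**
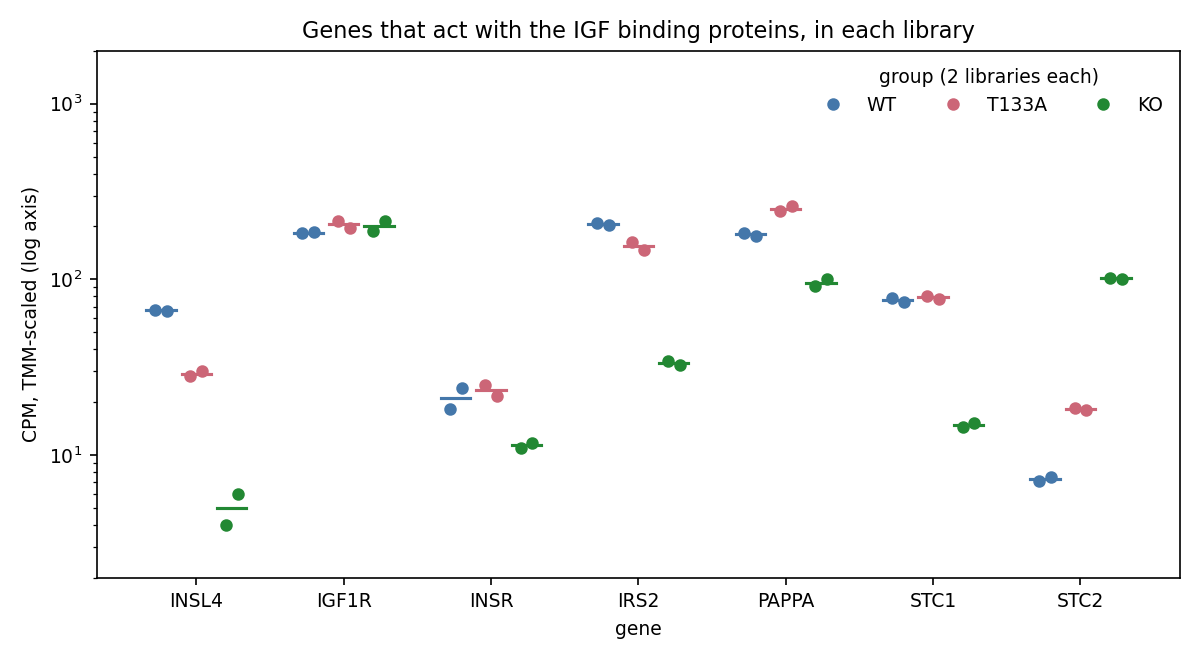
Level of 7 genes from the ligand, receptor, protease and signalling lists, chosen with their values known, in CPM on a log axis. Dots are libraries and lines group means. IGF1R stays between 183.7 and 216.1 CPM, INSL4 and IRS2 step down from WT to T133A to KO, PAPPA is highest in T133A, and STC1 and STC2 diverge in KO.

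Of 26 genes of insulin and IGF receptor signalling tested, 2 were higher and 2 lower in T133A than in WT, and 2 were higher and 10 lower in KO. These are 15.4% and 46.2% of the list, beside 9.55% and 46.6% of all genes, so the share in KO was near that over all genes. IRS2, a docking protein of both receptors, stood at 206.3 ± 3.51 CPM in WT, 154.6 ± 10.54 in T133A and 33.35 ± 1.34 in KO (log2 fold change -0.42 and -2.63, edgeR adjusted p = 0.00925 and 9.65e-15). GRB10, an adaptor that restrains these receptors, was higher in both by 0.91 and 0.55. IRS4 had no count in WT and 2.16 ± 1.02 CPM in T133A, at least 12.6-fold higher when WT is set at 3 counts per library. Of 6 IGFBP-related genes tested, CCN1 was higher in KO and 4 were lower, among them KAZALD1 (-1.57, SE 0.183) and CCN5 (-1.27, SE 0.13). CCN5 was also the 1 called in T133A with WT, lower by a log2 value of -0.64. The called share of this list was 16.7% in T133A and 83.3% in KO, beside 9.55% and 46.6% of all genes. Of 3 IGF2 mRNA-binding proteins, which share the name but bind RNA, 1 was higher in T133A (IGF2BP2, 0.46) and 2 in KO (IGF2BP1, 0.28, and IGF2BP2, 0.35), or 33.3% and 66.7% beside 9.55% and 46.6% of all genes.

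Of 20 transcription factors known to act on IGF binding protein genes, 4 were higher and 2 lower in T133A than in WT, and 6 were higher and 7 lower in KO. These are 30.0% and 65.0% of the list, beside 9.55% and 46.6% of all genes. EPAS1, a hypoxia-inducible factor, stood at 240.0 ± 4.72 CPM in WT, 411.5 ± 23.03 in T133A and 314.8 ± 72.13 in KO. It was called higher than in WT in both (log2 fold change 0.78 and 0.39, edgeR adjusted p = 0.000118 and 0.0111). The TGF-beta effector gene SMAD3 was higher in T133A by 0.75 and in KO by 1.30. The hepatic factor genes FOXA1 and HNF4A were lower in KO by log2 values of -2.19 and -2.37. FOXA1 was also called lower in T133A (-0.53), and HNF4A was not called there (-0.24). VDR, the vitamin D receptor gene, was higher in T133A by 1.16 and in KO by 2.03.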

How the data were processed

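RNA was sequenced from 6 A549 libraries, 2 in each of 3 groups assigned from the sample titles. HISAT2 2.0.5 and featureCounts 1.5.0 are named, with GRCh38, in the submitters' processing notes. The annotation release is not given in the sources used here, nor is the strand setting. Per the file headers, each table holds raw counts per gene and FPKM values. The deposited FPKM values were used only to check the counts, with library sizes 0.967 to 1.03 times the total count. All results come from the counts the authors deposited, fitted with edgeR 4.0.16 in R 4.3.3 (quasi-likelihood test, robust, TMM, filterByExpr, 1 fit of 6 libraries with group as the only term). P-values are two-sided, adjusted by Benjamini-Hochberg over 16340 genes in each comparison, with a threshold of 0.05. A standard error is the absolute log2 fold change over the square root of F. The biological coefficient of variation was 8.96%, and a count of 0 allows up to 3 counts, 0.161 to 0.182 TMM-scaled CPM, for counting error only.

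The procedure was tested on simulated data, which gave every group the same spread, held no GC trend and changed only genes above 5 CPM. The simulation therefore does not cover unequal spread, GC trends or rare members such as IGFBP5. No replicate pair matched within counting noise: chi-square over its degrees of freedom was 2.37 in WT, 9.16 in T133A and 11 in KO. In the files, 27 gene names that had turned into dates were restored. Named genes are the 7 members, up to 4 called genes of each list per comparison, the nearest coding neighbours, and the 3 genes with the smallest root mean square difference of centred log2 CPM (prior count 2). A neighbour was the nearest protein-coding gene on each side that passed the low-count filter and did not overlap the member. Genes that did not pass were skipped. The members and lists were chosen with earlier results of these data known. Alternatives were RLE factors, library size alone, DESeq2 1.42.0, limma-voom (limma 3.58.1), other filters, only the compared groups, replicate blocks, a GC and length correction (least-squares loess, span 0.5, GENCODE 29 transcripts, 99.95% of tested genes), each library left out, and a minimum log2 fold change of 1. After the results of the least-squares correction had been seen, a robust loess and a crossed replicate block were added.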

Additional observations from a re-analysis of the deposited data

How the results depend on the processing

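Of 333 values for single members under the other settings listed at the outset, without the rule on a minimum fold change, 319 kept their direction and their side of the threshold, 7 lost a call, 2 gained one and 5, all of IGFBP2 and none of them called, changed sign. IGFBP2 in T133A with KO was -0.028 with library size alone and -0.013 without a low-count filter, and ran from -0.0896 to 0.128 when 1 library was left out; in T133A with WT it then ran from -0.220 to 0.0145. Leaving out 1 library gave 1 to 4 members called higher in T133A with WT, and 763 to 2579 genes called in all. The GC and length correction by least squares, listed at the outset, called 2544 genes there. The robust loess, adopted after those results had been seen because the first moved the median of all genes by 0.147 in KO with WT, called 2595. Under the robust loess alone IGFBP4 in T133A with KO changed sign, to 0.119, and to 0.1193 with the replicate block. With a minimum absolute log2 fold change of 1, the genes called were 431 in T133A with WT, 2490 in KO with WT and 2097 in T133A with KO, and 1 member was called higher in T133A with WT. With a mean of at least 5 CPM, 0 members were called lower in T133A with WT, since IGFBP5 was not tested.

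The labels do not say whether equal replicate numbers in different groups belong together. The correlation of replicate deviations was -0.05 for WT and T133A, 0.02 for WT and KO and -0.12 for T133A and KO, over 16340 genes. These values cannot show whether libraries were prepared in pairs, because the deviations also followed GC content. With the replicate block, 1419 genes were called in T133A with WT, 7165 in KO with WT and 6031 in T133A with KO, and no member gained or lost a call. In a fit of T133A and KO alone, chosen after seeing the data, the replicate block called 4236 genes and the crossed replicate block 7074. The least abundant member, IGFBP5, had 21 and 24 counts in KO, which limits the precision of its fold changes.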

Other observations

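The genes around the IGF binding proteins include the tensins, adaptor proteins that link integrins to actin, which were picked out after their values were seen. TNS4 lies 18.1 kb from IGFBP4, TNS2 33.06 kb from IGFBP6, TNS1 1104 kb from IGFBP5 and TNS3 1353 kb from IGFBP3. TNS4 stood at 65.29 and 74.0 CPM in the WT libraries, 143.7 and 134.1 in those of T133A and 49.29 and 57.43 in those of KO. It was higher in T133A (log2 fold change 0.996, edgeR adjusted p = 1.33e-06) and lower in KO (-0.38, adjusted p = 0.00832), while IGFBP4 was higher in both (0.50 and 0.62). TNS3 was higher in T133A and in KO (0.61 and 0.50, adjusted p = 0.000388 and 0.000539), while IGFBP3 was higher in T133A (0.41) and lower in KO (-1.498). TNS2 was lower in both (-0.59 and -0.42, adjusted p = 0.0112 and 0.0225). TNS1 was lower in KO (-0.84, adjusted p = 0.0015), as IGFBP5 was, and stood at 12.94 and 10.17 CPM in T133A against 8.42 and 8.03 in WT (adjusted p = 0.0984).

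Other tested coding neighbours gave further values. TOP2A, 25.51 kb from IGFBP4, was lower in T133A than in WT (log2 fold change -0.44, edgeR adjusted p = 0.0248). SPRYD3, 18.02 kb from IGFBP6, was higher in KO (0.58, adjusted p = 0.000454), and CSAD, 55.32 kb on its other side, was lower in KO (-0.77, adjusted p = 0.00359). RPL37A, 53.65 kb from IGFBP2, was higher in KO (0.59, adjusted p = 6.05e-05). NOA1, 51.95 kb from IGFBP7, was higher in KO (0.40, adjusted p = 0.0113), while ADGRL3, 4091 kb away on the other side, was lower (-3.19, adjusted p = 2.85e-07).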
